A study of Mus musculus with 9 samples.

Results

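The lysosome and autophagy genes described here are 42 genes, listed by symbol: 3 transcription factors of the MiT/TFE family, 6 lysosomal proteases, 7 glycosidases and their cofactors, 7 proteins of the lysosomal membrane and of lipid export, 5 subunits of the proton pump, 5 genes of the autophagy receptor and ATG8 family, and 9 genes of autophagy initiation and conjugation. Each symbol matched 1 of the 48526 gene rows of the count table, and all 42 were among the 18858 genes that passed the filter on low counts. The samples were adult neural stem cells from the subependymal zone (SEZ) of C57BL/6 mice (C57BL/6J in the study's methods), wild type and expanded as neurospheres. Differentiation is induced by keeping the cells on Matrigel, an adhesive substrate, with FGF but without EGF, and 3 libraries each were made 0, 1 and 6 h after induction. For cells fixed at early times, the study's methods describe a day of culture in medium with EGF before the switch. The 0 h libraries are thus the undifferentiated starting point, and no culture kept in EGF until 1 h or 6 h is among the samples. The titles carry a letter (B, C or D for replicates 1, 2 and 3), and what libraries with the same letter share is not stated. Libraries were compared within letters, so the main p-values measure how much time point differences vary from letter to letter. They do not measure the spread between letters, and what they measure may be technical in part.

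Lysosomes are the acidic compartment in which proteins, glycans and lipids are broken down. A proton pump of the vacuolar ATPase (V-ATPase) type acidifies them, hydrolases do the digestion, and membrane proteins carry the products out. Autophagy delivers cytoplasm to them: the ULK kinases start the process, ATG9A brings membrane, WIPI proteins mark the growing cup, the ATG5 and ATG7 conjugation system attaches LC3 and GABARAP proteins to it, and receptors such as SQSTM1 (p62) bring in cargo. The factors TFEB, TFE3 and MITF bind E-boxes in the promoters of many of these genes, and the kinase mTORC1 holds TFEB and TFE3 in the cytoplasm when nutrients and growth factors are plentiful. Quiescent neural stem cells are known for abundant lysosomes. Counts of mRNA measure neither the number of lysosomes nor enzyme activity nor autophagic flux, and in bulk samples fewer cells of a type and less RNA per cell cannot be told apart.

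Several of these genes carry the E-box CACGTG close to their start. RefSeq promoters (GRCm38.p6, from 250 bases before to 50 bases after a start) were found for 36 of the 42 genes; Ctsb, Npc1, Becn1, Map1lc3a, Atp6v1b2 and Atp6v1h had no entry. The E-box, which reads the same on both strands, lay in a promoter of 14 of the 36 (38.9%), against 8.09% of all genes in the promoter table. Those 27025 genes were not limited to the tested ones, so the sets are not matched for expression. No chromosome was set aside among them. The longer form TCACGTG, searched on both strands and holding the shorter one, lay in 12 of the 36 (33.3%, against 4.29% of genes), and the palindrome TCACGTGA in 7 (19.4%, against 1.12%). The stretches below, written 5′ to 3′ on the strand of the gene with the E-box in capitals, are those of the 4 E-box genes that were higher at 6 h than at 0 h (Ctsd, Ctsa, Gaa and Atg7), together with Lamp1, which has the densest run of them, and Cln3, which carries the palindrome.
Ctsd, chr7:142387910-142387935, minus strand, 98 bases before the start: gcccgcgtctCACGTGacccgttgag
Ctsa, chr2:164833751-164833772, plus strand, 12 bases before the start: agcaaactgtCACGTGatgcag
Gaa, chr11:119267798-119267853, plus strand, 140 bases before the start: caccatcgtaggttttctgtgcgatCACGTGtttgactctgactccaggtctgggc
Atg7, chr6:114670939-114670994, plus strand, 132 bases before a start: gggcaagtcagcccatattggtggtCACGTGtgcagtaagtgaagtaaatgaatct
Lamp1, chr8:13159091-13159146, plus strand, with its middle E-box 45 bases before the start: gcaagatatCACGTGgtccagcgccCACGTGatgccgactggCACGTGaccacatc
Cln3, chr7:126583342-126583367, minus strand, 121 bases before a start: cgggtactgtCACGTGacccccaacc
The promoters of Mitf, Tfeb, Tfe3, Atg9a, Wipi1 and Ulk2 hold no CACGTG, which says only that these letters are not in those windows.

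The libraries held 65871454 to 105592597 counts. Libraries with the same letter deviated together from their time point means, and without the letter as a block the spread between replicates was several times wider. All 10 markers of adult neural stem cells were above 1 CPM on average (a count divided by the scaled library size), with a summed level of 6828 to 9739 CPM. Of the 10 microglia markers, which matter because microglia are rich in lysosomes, none averaged 1 CPM, 3 were at 0 in every library, and their sum ran from 0.122 to 0.57 CPM. The 8 markers of the oligodendrocyte lineage, by contrast, had sums between 614 and 785 CPM at 0 h, between 619 and 712 CPM at 1 h and between 878 and 1050 CPM at 6 h, so that this sum moved with the 6 h group, mainly through Olig2 and Cspg4; its part in the results at 6 h was not tested. The summed markers of neurons and neuroblasts (798 to 1527 CPM, nearly all from Map2), of astrocytes (199 to 411 CPM) and of endothelial and ependymal cells (39.5 to 92.9 CPM) overlapped between all 3 time points. Single markers moved at 6 h against 0 h nonetheless, in 3 of 3 letters each. The neuronal genes Tubb3 (log2 1.06, adjusted p = 2.1e-06, edgeR), Rbfox3 (1.23, adjusted p = 6.8e-05) and Snap25 (0.50, adjusted p = 0.019) rose, from means of 3.76, 2.37 and 1.81 CPM at 0 h. The other markers of that list did not rise and were not called: Stmn2 (-0.77), Dcx (-0.35) and Map2 (-0.01). Of the stem cell list, Nes (-0.43) and Vim (-0.28) fell while Sox9 (0.35), Slc1a3 (0.31) and Egfr (0.21) rose, and Gfap (-0.63), Kdr (-0.72), Foxj1 (-0.36) and the microglia marker Csf1r (-1.28) fell. Means at 0 h were 1.31 CPM for Gfap, 2.68 for Kdr, 61.3 for Foxj1 and 0.147 for Csf1r. The fall of Csf1r rests on only 3 to 20 counts per library. The part of these shifts in the results at 6 h was not tested either.

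The lysosome was well represented in the mRNA of these cells. On the scale of CPM per kb of annotated exon, which allows genes of different length to be compared, the median of the 42 genes was 15.7, against 3.19 over all tested genes. Psap, the precursor of the saposins that present sphingolipids to their hydrolases, was the highest at 288 CPM per kb (261 to 343 over the 9 libraries), and stood above 99.5% of tested genes. Lamp1, the major glycoprotein of the lysosomal membrane, followed at 154 CPM per kb (139 to 177), without overlap with Psap. Gabarap (82.4, range 71.8 to 96.5), Ctsd (72.9, range 59.3 to 95.4), Atp6ap1 (63.7, range 55.4 to 73.4) and Atp6v0d1 (57.1, range 47.8 to 65) came next, and each of these ranges overlaps its neighbour's. At the lower end stood Tfe3 at 6.19 CPM per kb (5.4 to 7.59), Tfeb at 1.28 (0.868 to 1.81) and Mitf at 0.956 (0.568 to 1.77). The ranges of Tfeb and Mitf overlap, and both lie below every library of the other 40 genes.

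**Figure D1:**
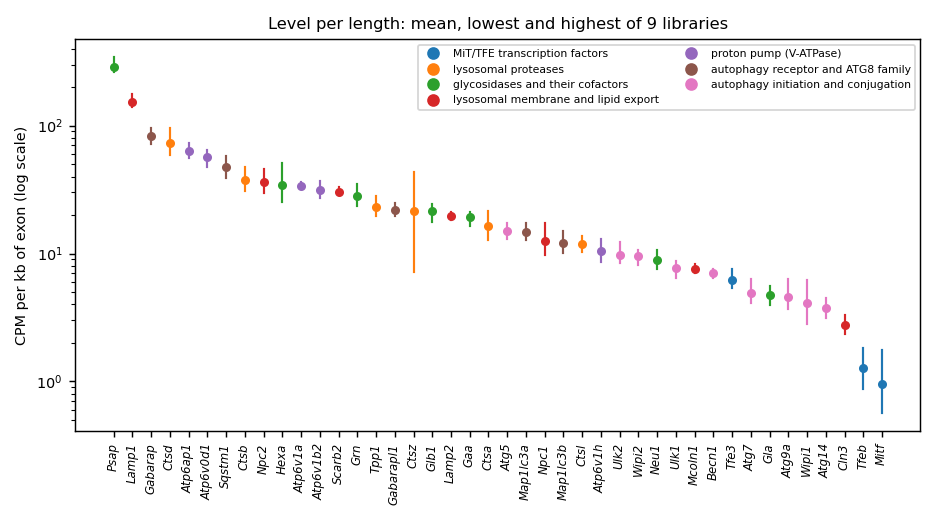
Level of each of the 42 genes in CPM per kb of annotated exon (vertical axis, log scale), ordered from the highest mean to the lowest; points are the means of the 9 libraries, bars run from the lowest to the highest library, and colours mark the 7 groups. Psap leads at 288 CPM per kb, Tfeb and Mitf close the order near 1, and Ctsz has the longest bar.

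Most of these genes differed little between letters, with a few exceptions. The highest 0 h library exceeded the lowest by a median of 1.22-fold, and by less than 1.5-fold for 39 of the 42 genes. Ctsz, which encodes cathepsin Z, a carboxypeptidase, stood at 10.4, 26.0 and 50.2 CPM in replicates 1, 2 and 3 at 0 h, a 4.83-fold range. It kept that order at 1 h (11.3, 28.9 and 62.4 CPM) and at 6 h (11.6, 28.1 and 52.3 CPM), so that its level went with the letter and the test called no change with time. Hexa, a subunit of β-hexosaminidase, was highest in replicate 3 at each time point (60.4, 50.2 and 87.9 CPM at 0 h), and Tfeb likewise.

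By 6 h after induction, lysosome and autophagy transcripts moved up more often than down. With edgeR's quasi-likelihood test, letter as a block and Benjamini-Hochberg adjustment over all tested genes, 18 of the 42 genes were higher at 6 h than at 0 h (42.9%, where 17.4% of all tested genes were higher) and 0 were lower (17.5% of all tested genes were). At an unadjusted p under 0.05, 1 gene was lower, and DESeq2 with the block called 17 higher and 0 lower. The median log2 fold change was 0.11, against 0 to 2 decimals over all tested genes, and 28 of the 42 genes were higher in 3 of 3 letters, against 31.5% of all tested genes. The changes were small: without Mitf, Tfeb and Atg9a, the largest was a log2 fold change of 0.38. Without the block, 2 genes (Mitf and Atg9a) were higher, against 1.46% of all tested genes, and 0 lower, against 0.955%. These genes are richer in GC (median 51.4%, and 53.8% for the 18) than all tested genes (49.2%), and with each library's trends in GC content and transcript length removed, 12 were higher and 2, Glb1 and Sqstm1, were lower (16.3% and 20.8% of tested genes). Leaving out 0 h replicate 2 brought the number higher to 11, and leaving out all of replicate 2 to 8.

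**Figure D2:**
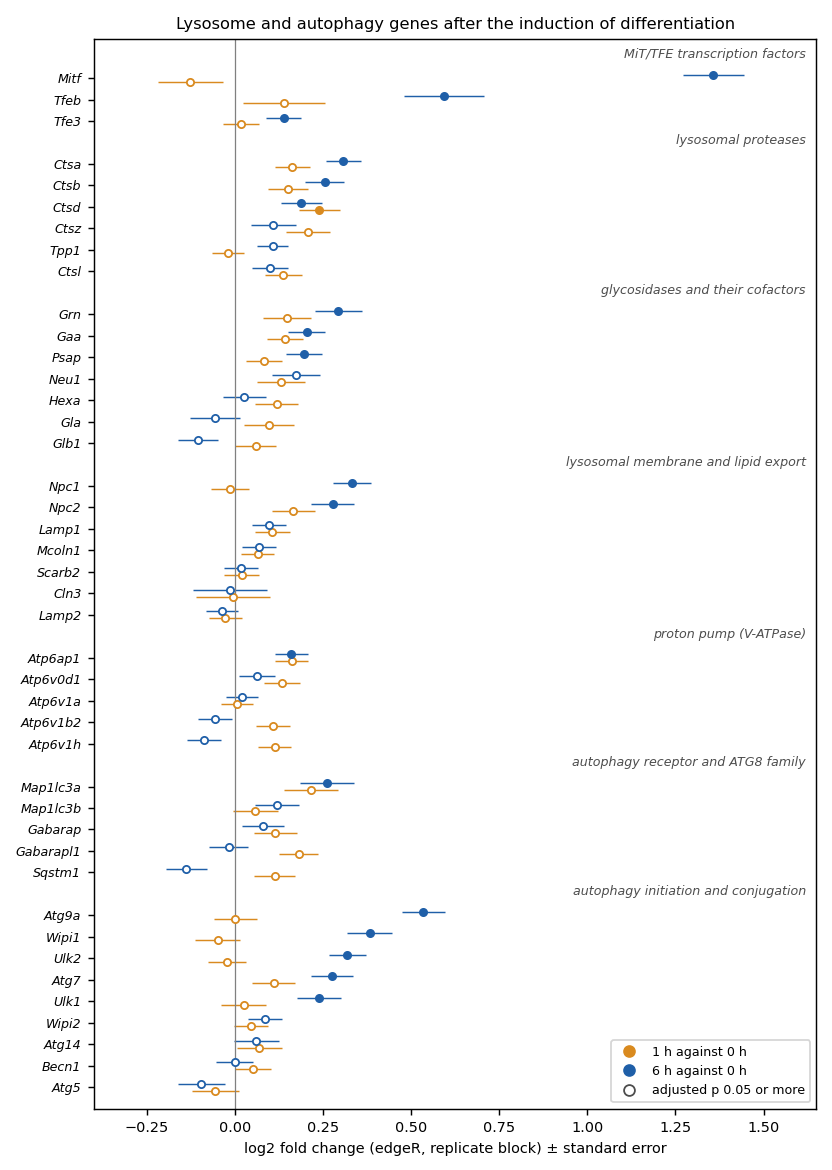
Log2 fold change of the 42 genes at 1 h (orange) and 6 h (blue) against 0 h, with standard errors, grouped by role; filled points had an adjusted p under 0.05. The 2 comparisons share the 0 h libraries. Mitf at 1.36 and Tfeb at 0.59 stand out at 6 h, 18 blue points are filled and all of them lie to the right of 0, and Ctsd has the single filled orange point.

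All 3 MiT/TFE factors rose by 6 h, where 17.4% of all tested genes did. Mitf (ENSMUSG00000035158, chromosome 6, 97807052 to 98021349, plus strand, GRCm38), best known from melanocytes, read 4.18, 3.80 and 3.92 CPM in replicates 1 to 3 at 0 h, then 3.66, 3.72 and 3.52 CPM at 1 h. At 6 h it read 10.03, 11.0 and 9.51 CPM. The 6 h libraries thus lie far above the other 6, and letters hardly differ. The rise was 2.56-fold (log2 1.36 ± 0.09, standard error; adjusted p = 2.4e-07, edgeR) against 0 h and 2.8-fold (log2 1.48 ± 0.09, adjusted p = 1.7e-07) against 1 h, and it passed without the block too (adjusted p = 0.0038 and 0.0024) and with any single library left out.

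Tfeb (ENSMUSG00000023990, chromosome 17, 47737030 to 47792419, plus strand), the master regulator of lysosome formation, stood at 4.98, 4.92 and 8.28 CPM at 0 h and at 5.36, 5.02 and 9.87 CPM at 1 h. It reached 8.42, 8.11 and 10.3 CPM at 6 h. Replicate 3 was already high at 0 h and 1 h, so the time points overlap, while each letter was highest at 6 h. The log2 fold change was 0.59 ± 0.11 against 0 h (adjusted p = 0.0014) and 0.45 ± 0.11 against 1 h (adjusted p = 0.0073), the second of which was lost without 6 h replicate 1 (adjusted p = 0.0504); without the block neither passed (adjusted p = 0.40 and 0.56). Tfe3, its close relative, rose least, from 53.1, 62.4 and 50.01 CPM at 0 h through 51.7, 65.8 and 50.5 CPM at 1 h to 55.1, 70.3 and 56.9 CPM at 6 h. Its time points overlap, and the log2 fold change of 0.14 ± 0.05 against 0 h passed narrowly (adjusted p = 0.048). Leaving out single libraries, that call held only without 1 h replicate 3 (highest adjusted p of the 9 fits 0.22) and was lost without the block (adjusted p = 0.70) and with the GC and length trends removed (adjusted p = 0.095).

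**Figure D3:**
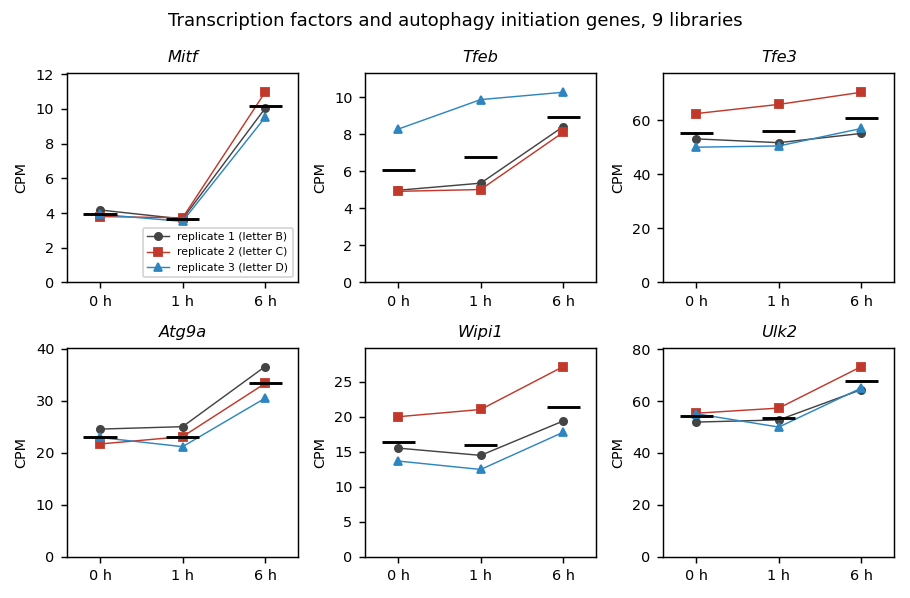
CPM (vertical axes, from 0) of the 3 MiT/TFE factors and 3 autophagy genes over the 3 time points in each of the 9 libraries; lines join libraries with the same letter and black bars are means of 3. Mitf and Atg9a at 6 h lie above all earlier libraries, whereas Tfeb, Tfe3 and Wipi1 rise within each letter from different starting levels.

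Genes of autophagy initiation and conjugation formed the group with the next largest median (log2 0.24). Of these, 5 of 9 were higher at 6 h than at 0 h (55.6%, where 17.4% of all tested genes were). With the GC and length trends removed, the median was 0.14 and 5 were higher. Atg9a (ENSMUSG00000033124, chromosome 1, 75180860 to 75192196, minus strand), which encodes the transmembrane lipid scramblase of autophagy, read 24.5, 21.7 and 22.9 CPM at 0 h and 24.99, 23.1 and 21.1 CPM at 1 h. At 6 h it read 36.5, 33.3 and 30.5 CPM, above all 6 earlier libraries. The log2 fold change was 0.53 ± 0.06 against either time point (adjusted p = 2.5e-05 against 0 h and 2.7e-05 against 1 h), and it passed without the block as well (adjusted p = 0.039 and 0.041). Its exons overlap those of Ankzf1 on the other strand and of Gm29253 on the same strand, a row counted at 0 in every library.

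Ulk2, a kinase that starts autophagosome formation, was at 51.9, 55.3 and 55.1 CPM at 0 h, at 52.7, 57.3 and 49.98 CPM at 1 h, and at 64.4, 73.3 and 65.0 CPM at 6 h. The 6 h libraries did not overlap the others (log2 0.32 ± 0.05, adjusted p = 4.9e-04 against 0 h; 0.083 without the block). Wipi1, a reader of phosphatidylinositol 3-phosphate on the forming autophagosome, went from 15.5, 20.0 and 13.7 CPM at 0 h through 14.5, 21.1 and 12.5 CPM at 1 h to 19.4, 27.2 and 17.8 CPM at 6 h. Its letters differ more than its time points do, and each letter rose (log2 0.38 ± 0.06, adjusted p = 5.1e-04 against 0 h; 0.48 without the block). Atg7, the E1-like enzyme of the conjugation system, rose by 0.27 ± 0.06 on the log2 scale (adjusted p = 0.0032). Ulk1, the main initiating kinase, rose by 0.24 ± 0.06 (adjusted p = 0.011), a call that was lost without 0 h replicate 2 or 6 h replicate 2 (highest adjusted p 0.10). The remaining 4 did not pass: Wipi2 at 0.09, Atg14 at 0.06, Becn1, which encodes beclin 1 of the autophagic lipid kinase complex, at 0.00, and Atg5, the acceptor of the ubiquitin-like ATG12, at -0.10.

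Inside the lysosome, 6 of the 13 proteases, glycosidases and cofactors were higher at 6 h than at 0 h, where 17.4% of all tested genes were. Ctsa, the protective protein that holds β-galactosidase and neuraminidase together, had a log2 fold change of 0.31 ± 0.05 (adjusted p = 4.2e-04). Grn, which encodes progranulin, followed at 0.29 ± 0.07 (adjusted p = 0.0044), and Ctsb, a cysteine cathepsin, at 0.25 ± 0.06 (adjusted p = 0.0034). Gaa, the acid α-glucosidase that degrades glycogen, and Psap each rose by 0.20 ± 0.05 (adjusted p = 0.0086 and 0.010). Gaa lost its call without 0 h or 6 h replicate 2 (highest adjusted p 0.059), and Psap without 0 h replicate 2 (0.080). Neither passed with the GC and length trends removed. The other 7 were Neu1 at 0.17 (adjusted p = 0.066), Tpp1 and Ctsz at 0.11, Ctsl at 0.10, Hexa at 0.03, Gla at -0.06 and, lowest, Glb1 at -0.10, with Ctsd described with the 1 h results.

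Of the 7 genes of the membrane and of lipid export, only the 2 of cholesterol export passed at 6 h (28.6%, where 17.4% of all tested genes were higher). Npc1, the membrane protein that takes cholesterol out of the lysosome, read 114, 152 and 123 CPM at 0 h, 119, 159 and 110 CPM at 1 h and 143, 195 and 153 CPM at 6 h. Replicate 2 was highest throughout and the time points overlap, while each letter was highest at 6 h (log2 0.33 ± 0.05, adjusted p = 4.0e-04 against 0 h; 0.38 without the block). Npc2, its soluble partner that carries cholesterol to it, rose by 0.28 ± 0.06 (adjusted p = 0.0036). Lamp1 at 0.10, the calcium channel gene Mcoln1 at 0.07, Scarb2 (the receptor that brings β-glucocerebrosidase) at 0.02, Cln3 at -0.01 and Lamp2 at -0.04 did not pass. Npc1 shares exon sequence with Rmc1 and Gm15956 on the opposite strand, and whether the counts used strand is not given in the sources used here. The same doubt holds for 16 of the 42 genes in all, among them Ctsa (with Neurl2 and Pltp), Ctsb (Fdft1), Grn (Fam171a2), Atg9a (Ankzf1), Sqstm1 (Mrnip), Atp6v1h (Rgs20) and Gabarapl1 (1700101I11Rik).

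Among the 5 subunits of the proton pump, Atp6ap1, an accessory subunit, was higher at 6 h than at 0 h by 0.16 ± 0.05 (adjusted p = 0.018), in 4 of the 9 fits with a library left out (lost on leaving out replicate 1 or 2 at either 0 h or 6 h, or replicate 3 at 0 h; highest adjusted p 0.094) and not with the GC and length trends removed. The core subunits Atp6v0d1 (0.06), Atp6v1a (0.02), Atp6v1b2 (-0.06) and Atp6v1h (-0.09) did not pass. The share of pump subunits called higher was thus 1 of 5 (20.0%), near the 17.4% of all tested genes. In the receptor and ATG8 group, Map1lc3a rose by 0.26 ± 0.08 (adjusted p = 0.018), in 5 of those 9 fits (lost on leaving out replicate 1 at 6 h, replicate 2 at either 0 h or 6 h, or replicate 3 at 0 h; highest adjusted p 0.11) and not with the GC and length trends removed. Its paralog Map1lc3b, which encodes the LC3B used as the common marker of autophagosomes, was at 79.2, 99.1 and 80.6 CPM at 0 h, at 76.5, 101 and 91.6 CPM at 1 h and at 86.7, 113 and 82.3 CPM at 6 h. Its time points overlap, and its log2 fold change of 0.12 ± 0.06 did not pass (adjusted p = 0.16). Gabarap stood at 0.08 and Gabarapl1 at -0.02. In the receptor and ATG8 group, too, 1 of 5 was called higher (20.0%, near the 17.4% of all tested genes). Reads from closely related paralogs could be split in counting, so values within this family carry that uncertainty.

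At 1 h after induction the genes had barely moved. Ctsd alone was higher than at 0 h (1 of 42, 2.38%, where 1.36% of all tested genes were higher), and 0 were lower (2.14% of all tested genes were), at an unadjusted p under 0.05 as well as with DESeq2, which called 2 higher. Ctsd (ENSMUSG00000007891, chromosome 7, 142375911 to 142388038, minus strand), the aspartic protease of the lysosome, read 140, 183 and 141 CPM at 0 h, 162, 205 and 179 CPM at 1 h and 150, 224 and 159 CPM at 6 h. Replicate 2 was highest throughout, and within each letter both later values exceeded the 0 h value. Its log2 fold change was 0.24 ± 0.06 at 1 h (adjusted p = 0.041) and 0.19 ± 0.06 at 6 h (adjusted p = 0.024), with a difference of -0.05 between 6 h and 1 h (adjusted p = 0.53). The call at 1 h held in 3 of the 9 fits with a library left out (replicate 2 of 1 h or of 6 h, or replicate 3 of 6 h; highest adjusted p 0.25), in 0 of the 3 fits with a letter left out, and not in the fit without the block. At 6 h it was lost without replicate 2 of 0 h or of 6 h and without replicate 3 of 0 h (highest adjusted p 0.14) and with the GC and length trends removed (adjusted p = 0.23). Gm49369, which shares its exons on the same strand, was counted at 0 in every library.

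The 1 h values nevertheless leaned upward. Of the 42 genes, 34 had a positive log2 fold change at 1 h (81.0%, against 50.2% of all tested genes) and 26 were higher in 3 of 3 letters (61.9%, against 20.8%), with a median of 0.10. An unadjusted p under 0.05 was reached by 15 genes, all higher. The share of all tested genes at an unadjusted p under 0.05 was not taken, here or for the further lists below. Without the block, 0 genes passed (0.0424% of all tested genes were higher) and 0 had an unadjusted p under 0.05. Of the 8 genes with a negative value, Mitf was the single gene lower in 3 of 3 letters, by a log2 fold change of -0.13 (adjusted p = 0.51).

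Between 1 h and 6 h the shares called were near those of all tested genes. Higher at 6 h were 10 of the 42 (23.8%, where 18.0% of all tested genes were higher) and lower were 5 (11.9%, where 17.5% were lower), with a median log2 fold change of 0.01. With the GC and length trends removed, the numbers were 7 and 8 (against 17.1% and 21.9% of tested genes), and without the block 2 and 0 (against 1.48% and 0.663%). The 10 were Mitf, Tfeb, Atg9a, Ulk2 (log2 0.34), Npc1 (0.35), Wipi1 (0.43), Ulk1 (0.21), Atg7 (0.17), Ctsa (0.14) and Tpp1 (0.13). Calls of Atg7, Ctsa and Tpp1, with adjusted p between 0.038 and 0.046, held in at most 2 of 9 fits with a library left out, and that of Ulk1 was lost without 6 h replicate 2 (adjusted p = 0.12). Without 6 h replicate 1 or 6 h replicate 2 the number higher was 6, and without 6 h replicate 1 or 6 h replicate 3 the number lower was 3 or 2. This comparison shares its 6 h libraries with that against 0 h.

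The 5 that fell from 1 h to 6 h were the cargo receptor, an ATG8 protein, a pair of pump subunits and a glycosidase. Sqstm1 (ENSMUSG00000015837, chromosome 11, 50199366 to 50210827, minus strand) read 188, 149 and 143 CPM at 0 h, 195, 161 and 161 CPM at 1 h and 153, 150 and 131 CPM at 6 h. All 6 h libraries lie below all 1 h libraries, and the 0 h libraries overlap both. The log2 fold change was -0.25 ± 0.06 against 1 h (adjusted p = 0.0047; 0.35 without the block) and -0.14 ± 0.06 against 0 h, where the test was not passed (adjusted p = 0.083) unless the GC and length trends were removed (-0.23, adjusted p = 0.0019). Gabarapl1 started at 39.7, 45.7 and 41.0 CPM, reached 43.9, 49.6 and 49.6 CPM by 1 h and was back at 39.7, 45.9 and 39.3 CPM by 6 h. Each letter peaked at 1 h, and the fall of -0.20 ± 0.06 (adjusted p = 0.014) was lost without 6 h replicate 3 (adjusted p = 0.086). That call held in 0 of the 3 fits with a letter left out.

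Atp6v1h, a subunit of the catalytic part of the pump that faces the cytoplasm, read 122, 89.8 and 89.7 CPM at 0 h, 128, 94.6 and 103 CPM at 1 h and 114, 83.8 and 86.2 CPM at 6 h (log2 -0.20 ± 0.05 from 1 h to 6 h, adjusted p = 0.0053). Atp6v1b2, a nucleotide-binding subunit, read 154, 186 and 155 CPM, then 162, 195 and 175 CPM, then 149, 183 and 145 CPM (log2 -0.16 ± 0.05, adjusted p = 0.019, lost without 6 h replicate 1 or 6 h replicate 3, highest adjusted p 0.11, and kept in 1 of the 3 fits with a letter left out). In both, the letters differ more than the time points do, and each letter peaked at 1 h. Glb1, the β-galactosidase whose activity marks senescent cells, read 59.9, 66.4 and 70.3 CPM at 0 h, 62.0, 69.0 and 73.9 CPM at 1 h and 53.4, 68.3 and 61.4 CPM at 6 h. Its fall of -0.16 ± 0.06 (adjusted p = 0.041) held in 2 of 9 such fits, those without 1 h replicate 2 or 6 h replicate 2. Its exons are shared with Tmppe on the same strand, a gene counted at 19.6 to 26.7 CPM, so reads may have been split between them.

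**Figure D4:**
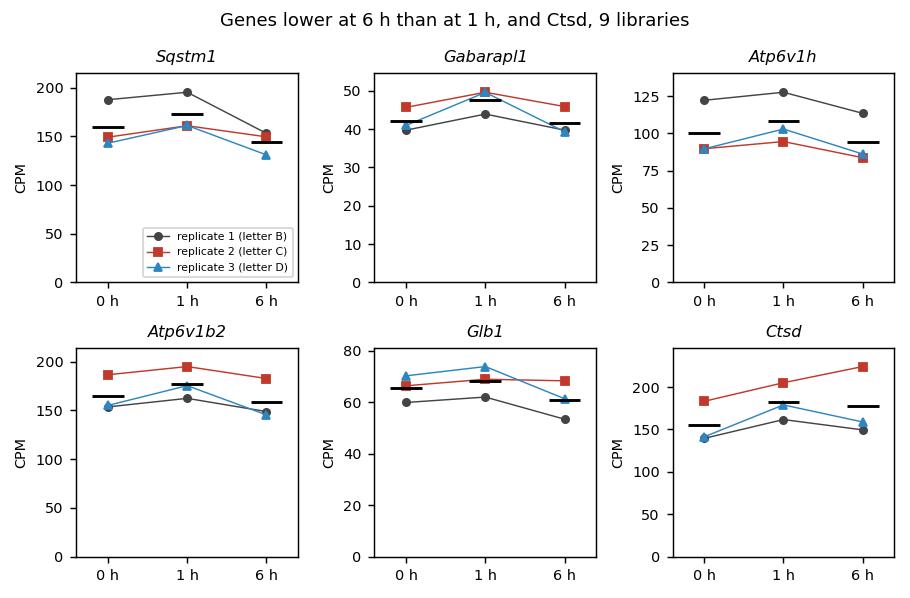
CPM (vertical axes, from 0) of the 5 genes that fell between 1 h and 6 h, and of Ctsd, in each of the 9 libraries by time point; lines join libraries with the same letter and black bars are means of 3. In the first 5 panels each line bends down from 1 h to 6 h, and Ctsd rises in each letter from 0 h to 1 h.

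Other genes of the same pathway, listed by role, gave the setting for these values. Of 130 such genes 128 were tested; Laptm5 and Mcoln2 were not. At 6 h, 50 were higher than at 0 h and 14 lower (39.1% and 10.9%, where 17.4% and 17.5% of all tested genes were), with a median log2 fold change of 0.11. Without the block the numbers were 7 and 2, where 1.46% and 0.955% of all tested genes were called. Removal of the GC and length trends gave 42 higher and 19 lower (16.3% and 20.8% of tested genes). Of the 30 other lysosomal hydrolases, 21 were higher (70.0%, where 17.4% of all tested genes were) and 0 lower, with a median of 0.23 and all 30 above 0. At an unadjusted p under 0.05, 27 were higher and 0 lower, and DESeq2 with the block called 19 higher and 0 lower. Gm2a, the activator protein for ganglioside breakdown, read 48.7, 37.8 and 42.2 CPM at 0 h and 75.8, 66.3 and 59.1 CPM at 6 h, with no overlap (log2 0.65 ± 0.06, adjusted p = 8.8e-06). Naglu, a heparan sulfate hydrolase (0.60 ± 0.06, adjusted p = 1.9e-05), and Lgmn, the asparaginyl endopeptidase legumain (0.52 ± 0.06, adjusted p = 2.7e-05), came next. Without the block 3 of the 30 were called higher (1.46% of all tested genes were), and with the GC and length trends removed 16 were (16.3% of tested genes).

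The other lists held calls in both directions at 6 h. Of 20 other lysosomal membrane proteins, 3 were higher and 4 lower (15% and 20%, near the 17.4% and 17.5% of all tested genes). Tmem175, a proton and potassium channel, rose by 0.48, Sort1, a sorting receptor for hydrolases, by 0.47 and Slc38a9, the arginine sensor of mTORC1, by 0.27, while Cd68 (-0.66) and Cd63 (-0.28) were among those that fell. Of 13 other pump subunits, 6 were higher (46.2%), led by Atp6v1g2 (0.41), Atp6v0a2 (0.29) and Atp6v0e2 (0.20), and 2, Atp6v1d (-0.19) and Atp6v1c1 (-0.16), were lower (15.4%). Among 37 other autophagy genes 14 were higher and 3 lower (37.8% and 8.11%): the receptors Calcoco1 (0.58) and Optn (0.53) and the tether Tecpr1 (0.48) rose most, and Uvrag (-0.40), Vmp1 (-0.37) and the fusion SNARE Stx17 (-0.21) fell. Once the GC and length trends were removed, 3 membrane proteins, 4 pump subunits and 14 autophagy genes were higher (16.3% of tested genes were). Lower were 4, 2 and 4 (20.8% of tested genes).

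Regulators of mTORC1, which sets the activity of TFEB and ULK1, counted 6 of 28 higher at 6 h and 5 lower (21.4% and 17.9%, near the 17.4% and 17.5% of all tested genes), with a median of -0.01. With the GC and length trends removed, 5 were higher and 9 lower (16.3% and 20.8% of tested genes were), with a median of -0.06. Sesn1, a sestrin that restrains mTORC1 when leucine is scarce, measured 24.3, 24.9 and 26.0 CPM at 0 h and 41.0, 41.8 and 45.6 CPM at 6 h, without overlap (log2 0.77 ± 0.06, adjusted p = 1.1e-06; 0.010 without the block). Castor2, of the arginine-sensing CASTOR family, rose by 0.72 ± 0.06 (adjusted p = 2.5e-06) and Nprl2, a GATOR1 subunit, by 0.31 ± 0.06 (adjusted p = 0.0019), and these 3 are known as negative regulators. Deptor, an mTOR-binding inhibitor, fell from 3.98, 2.14 and 2.52 CPM at 0 h to 2.04, 1.73 and 1.58 CPM at 6 h (log2 -0.65 ± 0.16, adjusted p = 0.0060). Fnip1, the folliculin partner, read 58.8, 52.9 and 55.5 CPM at 0 h and 38.5, 35.9 and 37.0 CPM at 6 h (log2 -0.58 ± 0.06, adjusted p = 1.2e-05; 0.019 without the block). Rragb, a Rag GTPase, fell by 0.39 on the log2 scale (adjusted p = 1.9e-04; 0.048 without the block).

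**Figure D5:**
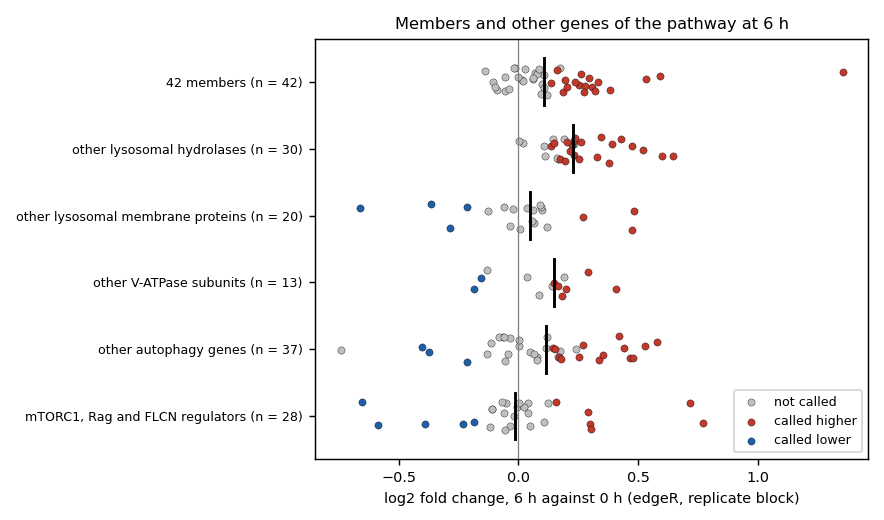
Log2 fold change at 6 h against 0 h (horizontal axis) of the 42 genes and of the 128 tested genes of 5 further lists; each point is a gene, red points were called higher, blue points lower and grey points not called, vertical jitter has no meaning, and black bars are medians. The median of the other hydrolases is 0.23 with no blue point, and that of the mTORC1 regulators is -0.01 with points of both colours.

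Between 1 h and 6 h, 43 of the 128 rose and 15 fell (33.6% and 11.7%, where 18.0% and 17.5% of all tested genes did). Besides genes named above, the leading ones were Ctso (0.47), Rubcn (0.53), Atg2a (0.48) and Tsc1 (0.38) upward, and Atp6v1e1 (-0.25), Laptm4b (-0.21) and Atg4a (-0.20) downward. At 1 h against 0 h, 0 of the 128 were higher (19 at an unadjusted p under 0.05, and 3 with DESeq2), where 1.36% of all tested genes were. Lower were 3 (2.34%, near the 2.14% of all tested genes): Cd68 (-0.65, adjusted p = 0.019), Atg12 (-0.27, adjusted p = 0.0096) and Rb1cc1 (-0.22, adjusted p = 0.038). Cd68, a macrophage lysosomal protein, stood at 3.88, 5.55 and 6.24 CPM at 0 h and at 2.70, 3.05 and 4.24 CPM at 1 h.

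Genes with and without the E-box were both among those that rose. Of the 14 genes with CACGTG in a promoter, 4 were higher at 6 h than at 0 h, where 17.4% of all tested genes were. Their median log2 fold change was 0.07. Among the 22 whose promoters lack it, 11 were higher, with a median of 0.15, and of the 6 whose promoters were not searched 3 were. Of the genes with several E-boxes, Ctsa and Ctsd were called higher, while Lamp1, Mcoln1, Cln3 and Gla did not pass. These are counts of letters in a fixed window, not of bound sites, and the difference between the sets was not tested.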

How the data were processed

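The deposited table holds raw read counts per Ensembl gene for 9 libraries of paired-end mRNA-seq. Per the submitters' processing notes and the study's methods, the authors used FastQC, STAR 2.5.3a and the mm10/GRCm38 genome, then DESeq2 1.22.1; the strand setting of the counting is not given in the sources used here. Gene symbols came from GENCODE M21 (48144 of 48526 identifiers matched). The 42 genes and all lists were chosen with earlier results of these data known.

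Counts were tested with edgeR 4.0.16 (R 4.3.3): TMM scaling (factors 0.97 to 1.02), filterByExpr (minimum count 10, total 15), time point plus letter as a block, all 9 libraries, quasi-likelihood test, two-sided, Benjamini-Hochberg adjustment over 18858 genes, threshold 0.05. The study's methods state no block; it was used because the genes were to be compared with libraries paired by letter. Deviations from time point means correlated at 0.865 to 0.940 between the 9 pairs of libraries with the same letter and at -0.523 to -0.397 between the 18 other pairs; the biological coefficient of variation was 0.0627 with the block and 0.277 without. No libraries agreed within sampling noise. CPM values use the TMM factors. Data were simulated for 6 h against 0 h (18642 genes, 200 changed) with the letter effects and the spread of the blocked fit. The block recovered 71% of 1.5-fold and 77% of 2-fold changes with 5 unchanged genes called, against 15% and 33% without it. As the simulation takes the letter effects as given, it cannot show whether the block is right for these libraries.

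Per comparison, up to 6 called genes rising and 6 falling most, and always Tfeb, Tfe3, Mitf, Sqstm1 and Map1lc3b, are given by library, and up to 3 called genes each way per further list are named, except for a gene that, like a marker, is not reported here. Alternatives were DESeq2 1.42.0, other scalings, filters and thresholds, removal of GC and length trends (spline offsets), fits without the block, and leaving out libraries or letters.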

Additional observations from a re-analysis of the deposited data

How the results depend on the processing

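Small fold changes in 3 libraries per time point limit these results, and most calls depend on pairing by letter. Without the replicate block, genes of the 42 called higher numbered 0 at 1 h against 0 h (1 with the block), 2 at 6 h against 0 h (18) and 2 at 6 h against 1 h (10), and those lower at 6 h against 1 h numbered 0 (5). Other pathway genes called numbered 0, 9 and 7 (3, 64 and 58 with it). DESeq2 without the block gave 0, 3, 3 and 0 of the 42, and 0, 20 and 18 of the others. With the block, DESeq2 gave 2 of the 42 and 7 of the others at 1 h, and no filter on low counts gave 2 and 6. An adjusted p under 0.01 left 0 of the 42 and 1 of the others at 1 h, 38 of the others at 6 h against 0 h, and 6 higher and 2 lower of the 42 at 6 h against 1 h. A log2 fold change of at least 0.5 in size left 0 and 1 at 1 h, 3 and 10 at 6 h against 0 h, and 2 higher, 0 lower and 6 of the others at 6 h against 1 h. Fits of only the 6 libraries compared called 1 of the 42 lower at 6 h against 0 h and 3 lower against 1 h, as did library totals without scaling (3), and removing GC and length trends gave 2 and 8 lower.

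Leaving out a library or a letter, the 42 gave 0 to 1 higher at 1 h, 8 to 22 higher and 0 to 2 lower at 6 h against 0 h, and 5 to 15 higher and 1 to 5 lower at 6 h against 1 h; the others gave 0 to 3, 33 to 80 and 40 to 57 called. Signs turned in uncalled values at 1 h only: over these fits Tfeb ran from -0.015 (without 1 h replicate 3) to 0.22, Tfe3 from -0.013 (without replicate 2; -0.0031 and -0.0074 without 0 h or 1 h replicate 2) to 0.053, and Map1lc3b from -0.025 (without 1 h replicate 3; -0.0032 without replicate 3) to 0.12. Of 1909 values under alternatives, 1597 kept direction and side of the threshold. Causes were not tested.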
